A study of Mus musculus with 6 samples.

Results

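The genes of the respiratory chain and of ATP synthase were examined in the colon epithelium of mice with and without the zinc finger gene Zfp90 in the intestinal epithelium. Members were the protein-coding genes whose symbols begin with Nduf, Uqcr, Cox4 to Cox8 or Atp5, the 4 Sdh subunit genes and the 13 protein-coding genes of the mitochondrial genome. Of 52550 genes listed for each mouse, 106 met this rule, 93 in the nucleus and 13 in the mitochondrion, and 13 further genes that fit the symbols were left out as pseudogenes or noncoding RNAs. RNA-seq values came from 3 control mice, Zfp90 fl/fl, and from 3 knockout mice, Zfp90 ΔIEC, all male C57BL/6 littermates aged 6 to 8 weeks. Zfp90 fl/fl mice carried the floxed gene without Cre, and Zfp90 ΔIEC mice carried Villin-cre as well, which acts in the epithelium of the intestine. All mice received 10 mg/kg azoxymethane, a carcinogen, and from 5 days later 3 cycles of 7 days of 2% dextran sulfate sodium, which injures the colon, and 14 days of water, and were euthanized on day 80. Concentration and age are those of the sample labels, and the study's methods state other values for both. The genotypes were housed apart after weaning and the controls lacked Cre, so that cage, Cre and the deletion cannot be told apart. The genotype label of 2 knockout samples carries another gene number, and these were grouped by their titles. Levels are given as FPKM, a fragment count scaled to transcript length and to sequencing depth, in the order of replicates 1, 2 and 3. Zfp90 itself had 0.630, 0.490 and 0.569 FPKM in the Zfp90 fl/fl group, while the Zfp90 ΔIEC group had 0.0846, 0.195 and 0.166 FPKM, without overlap.

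The respiratory chain passes electrons from NADH through complex I, or from succinate through complex II, to complex III and then, by way of cytochrome c, to oxygen at complex IV. Complexes I, III and IV pump protons across the inner mitochondrial membrane, and ATP synthase, complex V, lets them return to make ATP. Complex II is built from nuclear genes alone, whereas the other complexes need subunits from both genomes, so that cells have to keep 2 sets of transcripts in balance. Colonocytes, the absorptive cells of the colon, are known to draw much of their energy from the oxidation of butyrate made by gut bacteria.

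Sequences are shown for a shared stretch that bears on the counting of neighbouring genes, for the members of lowest p and for examples of promoter motifs. Mitochondrial genes lie almost end to end, and in GRCm38 mt-Atp8 and mt-Atp6 share 43 bases on the plus strand, chrM:7927-7969, which are printed in capitals because fragments within them belong to both genes.
mt-Atp8 and mt-Atp6, shared bases: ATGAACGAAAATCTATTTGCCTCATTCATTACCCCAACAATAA
mt-Nd4l and mt-Nd4 share 7 bases on the same strand, and the ends of mt-Nd5 and mt-Nd6 share 14 bases on opposite strands. Of the 13 genes only mt-Nd6 is read from the minus strand. For nuclear genes, promoter windows of 300 bases, from 250 before to 50 after the start, were taken from RefSeq on GRCm38.p6, where 76 of the 93 nuclear members matched by symbol, with 81 windows in all. Windows are given for Cox7a2l (chr17:83514284-83514583, minus strand) and Cox7a1 (chr7:30183921-30184220, plus strand), the members of lowest p, and for Atp5l (chr9:44920693-44920992, minus strand) and Cox6a1 (chr5:115348909-115349208, minus strand), which hold motifs of known regulators of respiratory genes. Capitals mark matches to GCGCANGCG, a core of the NRF1 motif, or to CCGGAAG, the core bound by GABP and other ETS factors, on either strand.
Cox7a2l: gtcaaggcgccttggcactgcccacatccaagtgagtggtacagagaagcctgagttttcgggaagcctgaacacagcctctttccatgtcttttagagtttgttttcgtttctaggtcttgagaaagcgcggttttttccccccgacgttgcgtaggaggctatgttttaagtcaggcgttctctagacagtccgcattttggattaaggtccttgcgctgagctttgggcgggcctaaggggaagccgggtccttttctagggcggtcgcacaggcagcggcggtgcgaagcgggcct
Cox7a1: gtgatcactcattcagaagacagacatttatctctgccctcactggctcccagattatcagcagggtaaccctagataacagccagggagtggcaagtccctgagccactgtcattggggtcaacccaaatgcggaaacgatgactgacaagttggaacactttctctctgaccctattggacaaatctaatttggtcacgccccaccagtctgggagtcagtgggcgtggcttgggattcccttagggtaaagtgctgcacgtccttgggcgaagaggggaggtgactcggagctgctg
Atp5l: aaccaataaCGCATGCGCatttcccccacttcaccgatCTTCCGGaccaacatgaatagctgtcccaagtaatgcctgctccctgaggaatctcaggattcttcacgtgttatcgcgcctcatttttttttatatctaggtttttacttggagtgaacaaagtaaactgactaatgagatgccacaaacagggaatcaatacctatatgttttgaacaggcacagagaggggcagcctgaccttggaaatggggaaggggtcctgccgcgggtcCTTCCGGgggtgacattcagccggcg
Cox6a1: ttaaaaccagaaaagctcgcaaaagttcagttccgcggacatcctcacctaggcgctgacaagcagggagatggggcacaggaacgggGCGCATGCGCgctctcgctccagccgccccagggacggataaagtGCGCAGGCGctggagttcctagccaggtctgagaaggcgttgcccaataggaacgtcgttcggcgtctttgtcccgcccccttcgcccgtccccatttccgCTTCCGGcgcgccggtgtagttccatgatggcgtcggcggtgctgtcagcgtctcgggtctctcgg
The Cox7a2l and Cox7a1 windows held no match to either motif or to AANATGGCG, a core of the YY1 motif. The Cox7a2l window lies inside the gene as annotated in GENCODE M21, where this minus-strand gene begins at chr17:83517330. A start at that position was not examined for Cox7a2l. The Atp5l window held 1 NRF1 match and 2 ETS matches, and the Cox6a1 window held 1 ETS match and 3 NRF1 matches, a pair of which overlap on opposite strands. Across the member windows the NRF1 core was present in 28.4%, against 13.8% of the windows of all genes tested and 6.25% of all 32851 windows. The YY1 core was present in 13.6% of member windows, 5.54% of those of tested genes and 2.38% of all windows, and the ETS core in 22.2%, 18.8% and 8.86%. These shares are a description of the letters in the windows and do not show binding.

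Transcripts of the respiratory chain were abundant and differed little between the genotypes. Of the 106 members, 99 had at least 1 FPKM in at least 3 samples and were tested, and 0 passed an adjusted p of 0.05 in limma, where the lowest adjusted p was 0.134, against 0.199% of the 11564 genes tested, which is 23 genes. At an unadjusted p under 0.05, 7 members were higher and 1 was lower in Zfp90 ΔIEC mice, while 6.56% of all genes tested were higher and 8.09% were lower. The 8 members make up 8.08% of those tested, below the share over both directions in all genes. In 12 members every Zfp90 ΔIEC value lay above every Zfp90 fl/fl value, and in 1 every value lay below, against 8.73% and 12.6% of all genes tested. These counts rested in part on single libraries. Without Zfp90 ΔIEC replicate 1, 20 members had an unadjusted p under 0.05 and 50 did not overlap, against 15.3% and 36.2% of all genes, and without Zfp90 ΔIEC replicate 2 the count at this p was 3, against 12.1%. Without Zfp90 fl/fl replicate 1 it was 5 and 22 did not overlap, against 11.3% and 30.7% of all genes, and without Zfp90 fl/fl replicate 2 it was 5, against 11.2%.

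Most small differences pointed the same way. The log2 fold change, Zfp90 ΔIEC minus Zfp90 fl/fl on the log2(FPKM + 1) scale, was above 0 in 80 of the 99 members, whereas it was above 0 in 42.8% of all genes tested. Its median was 0.06 over the members and -0.02 over all genes. The members share libraries and vary together, as described below, so their signs are not separate observations. The count above 0 depended on scaling and was 90 with median ratio scaling, 73 with quantile normalization and 70 when the FPKM of genes outside the mitochondrion were set to 1 total, with 48.8%, 47.4% and 38.7% of all genes above 0. Quantile normalization gave 5 members the same value in all mice, so these could not count as above 0. With 1 sample left out the count above 0 ranged from 63 without Zfp90 ΔIEC replicate 2 to 91 without Zfp90 ΔIEC replicate 1, and it was 65 without Zfp90 fl/fl replicate 1. The intervals limit the size of the differences. The 95% interval lay within 0.25 on either side of 0 for 45 of the 99 members and within 0.5 for 97. Over all 11564 genes tested, these counts were 4067 and 9707. The intervals of all 99 members lay within 1, from -0.33 at the lowest to 0.63 at the highest.

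**Figure D1:**
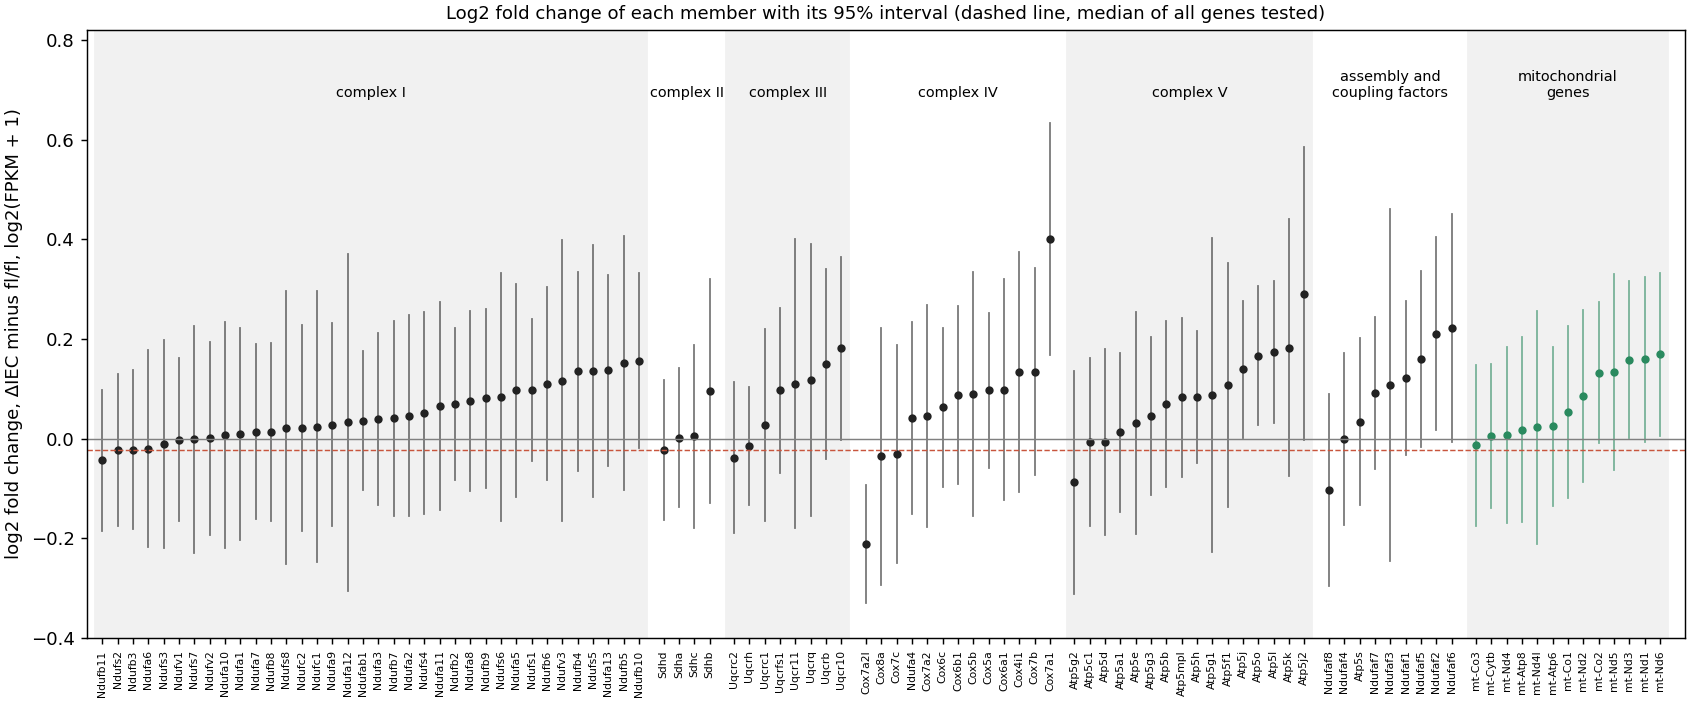
Log2 fold change of each of the 99 members tested (y axis, Zfp90 ΔIEC minus Zfp90 fl/fl on the log2(FPKM + 1) scale) by complex, with points for the estimate and lines for the 95% interval from limma; mitochondrial genes are in green. Most points lie between 0 and 0.2, with Cox7a2l at -0.21 and Cox7a1 at 0.40 farthest out, and the dashed line is the median of all genes tested at -0.02.

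**Figure D2:**
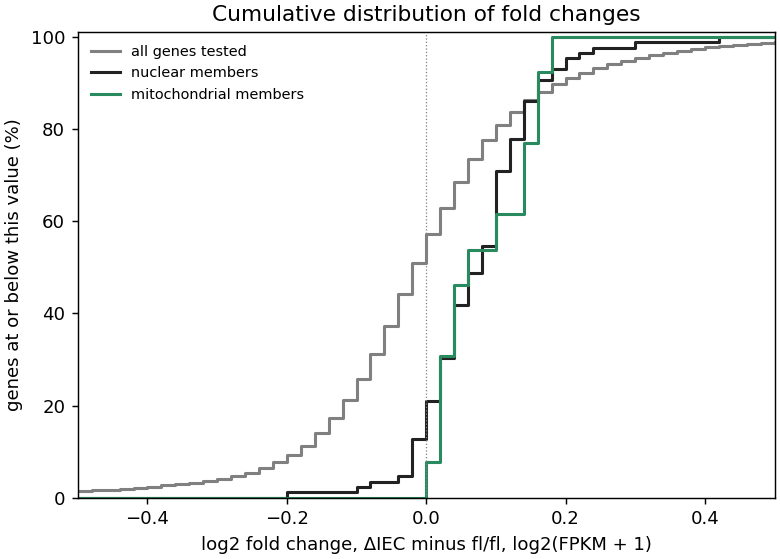
Percent of genes (y axis) at or below each log2 fold change (x axis, on the log2(FPKM + 1) scale, in steps of 0.02) for all 11564 genes tested, the 86 nuclear members tested and the 13 mitochondrial members. The member curves run to the right of that of all genes below 0.1 and meet it near 0.16, with medians of 0.06 and 0.05 against -0.02.

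The genomes differed far more in level than the genotypes did. The 13 mitochondrial members summed to 140571, 125566 and 131453 FPKM in Zfp90 fl/fl mice, compared with 139657, 136055 and 135790 FPKM in Zfp90 ΔIEC mice. The nuclear members summed to 6207, 6743 and 6754 FPKM in Zfp90 fl/fl mice and to 6300, 7165 and 7028 FPKM in Zfp90 ΔIEC mice. The groups overlapped in both sums. Means were 132530 ± 7560 and 137167 ± 2160 FPKM for the mitochondrial sum and 6568 ± 312 and 6831 ± 465 FPKM for the nuclear sum (SD, n = 3 each), log2 ratios of 0.05 and 0.06 that were smaller than the spread within a genotype. Replicate 1 made up much of this spread, and without it in both genotypes neither sum overlapped, with log2 ratios of 0.08 for the mitochondrial and 0.07 for the nuclear sum. The 13 mitochondrial genes took 30.4% ± 1.41 of all FPKM in Zfp90 fl/fl mice and 30.9% ± 0.75 in Zfp90 ΔIEC mice (SD, n = 3 each), and 11 of the 20 genes of highest mean FPKM were among them. The nuclear members tested had a median of 50.6 FPKM, against 6.38 FPKM for all genes tested, and 79 of 86 lay above that median. They were spread over 19 chromosomes with at most 7 on any of them.

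The ratio of the mitochondrial to the nuclear sum set replicate 1 of both genotypes apart from the other mice. It was 22.6, 18.6 and 19.5 in the Zfp90 fl/fl group, compared with 22.2, 19.0 and 19.3 in the Zfp90 ΔIEC group. The genotype means, 20.2 ± 2.12 and 20.2 ± 1.75 (SD, n = 3 each), differed by less than this spread. Among the 86 nuclear members tested, replicate 1 was the lowest of its genotype in 74 members in Zfp90 fl/fl mice and in 71 members in Zfp90 ΔIEC mice. Mitochondrial members were highest in replicate 1 in 12 of 13 genes in Zfp90 fl/fl mice and in 8 of 13 in Zfp90 ΔIEC mice. The nuclear sum was also taken as a percent of the FPKM of genes outside the mitochondrion. This percent was lowest in replicate 1, at 2.10%, 2.24% and 2.24% in Zfp90 fl/fl mice and 2.13%, 2.34% and 2.29% in Zfp90 ΔIEC mice. What sets replicate 1 apart was not tested. Mitochondrial ribosome proteins, summed over 78 genes, were also lowest in replicate 1, at 956, 973 and 970 FPKM and at 945, 1036 and 982 FPKM. Without replicate 1 of both genotypes, 0 members passed the adjusted threshold and 60 of 99 did not overlap, with 46.6% of all genes tested not overlapping when 2 mice face 2. The median log2 fold change was then 0.08 in both nuclear and mitochondrial members.

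**Figure D3:**
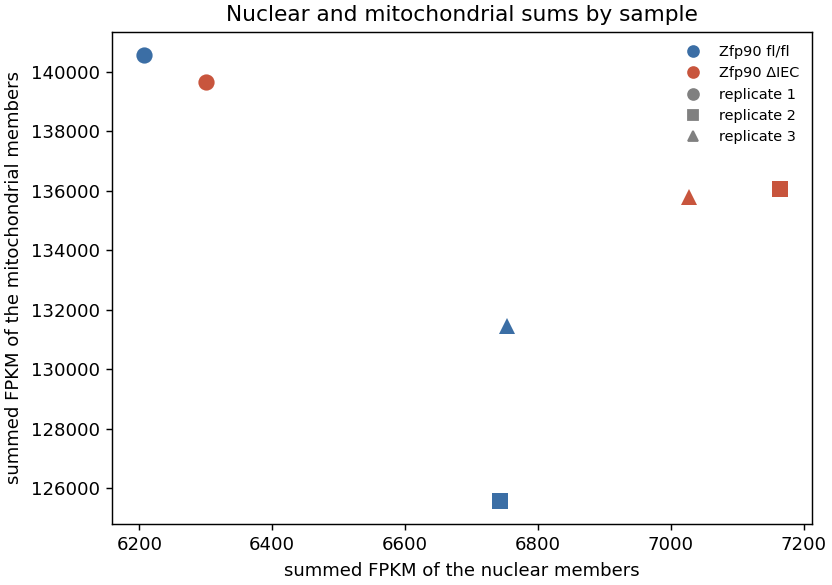
Summed FPKM of the 13 mitochondrial members (y axis) against that of the nuclear members (x axis) in each of the 6 mice, coloured by genotype with a symbol per replicate number; the axes do not start at 0. Replicate 1 of both genotypes lies at the upper left, at 6207 and 6300 nuclear and 140571 and 139657 mitochondrial FPKM.

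Complex I, NADH dehydrogenase, is the largest complex, and its 36 nuclear subunit genes lay at nearly the same level in both genotypes. Its nuclear sum was 1569 ± 79.4 FPKM in Zfp90 fl/fl mice and 1616 ± 126 FPKM in Zfp90 ΔIEC mice (SD, n = 3 each), and 0 of 36 had an unadjusted p under 0.05. Of the 7 genes of the catalytic core, which bind NADH, flavin and iron-sulfur clusters, 3 had a log2 fold change above 0 and the median was 0.00. Of the 29 accessory subunits, 26 were above 0 with a median of 0.05. Ndufb10, an accessory subunit of the membrane arm, was measured at 59.3, 60.7 and 63.6 FPKM in Zfp90 fl/fl mice and at 64.5, 75.4 and 65.5 FPKM in Zfp90 ΔIEC mice. Its groups did not overlap, and its log2 fold change was 0.16 (SE 0.0741, adjusted p = 0.395). Ndufs1, the core subunit that carries several iron-sulfur clusters, had values of 22.0, 23.0 and 22.9 FPKM and of 24.0, 25.9 and 23.2 FPKM, again without overlap and with an adjusted p of 0.511. Levels within the complex ranged from 2.38 FPKM for Ndufb2 to 171 FPKM for Ndufb9, the mean over all 6 mice. Ndufb9 had a log2 fold change of 0.08 and Ndufb11, the lowest nuclear gene of the complex by this measure, of -0.04, both with intervals that include 0. Many of these genes have processed copies elsewhere in the genome, and Ndufb4c, such a copy of Ndufb4, was listed at 22.9 to 27.7 FPKM beside 12.1 and 13.4 FPKM for the genotype means of Ndufb4. How reads were split between such copies is not given in the sources used here, so the level of Ndufb4 is uncertain.

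Complex II, succinate dehydrogenase, which also serves the tricarboxylic acid cycle, had the same level in both genotypes within error. Its 4 genes summed to 419 ± 15.8 and 421 ± 23.4 FPKM (SD, n = 3 each). Sdha, the flavoprotein, had a log2 fold change of 0.00 and Sdhd, a membrane anchor and the most abundant of the 4, of -0.02. Sdhb, the iron-sulfur subunit, had the highest, 0.10, with an interval from -0.13 to 0.32.

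Complex III, which moves electrons from ubiquinol to cytochrome c, showed its larger differences in small subunits. Its 8 nuclear genes summed to 1020 ± 33.8 FPKM in Zfp90 fl/fl mice and 1077 ± 77.4 FPKM in Zfp90 ΔIEC mice (SD, n = 3 each). Uqcr10, a small subunit, was measured at 156, 161 and 154 FPKM in Zfp90 fl/fl mice and at 159, 189 and 187 FPKM in Zfp90 ΔIEC mice. The first Zfp90 ΔIEC value lay within the Zfp90 fl/fl range and the other values lay above it, with a log2 fold change of 0.18 (SE 0.0774, adjusted p = 0.346). Uqcrb, another small subunit, had the same shape, at 164, 169 and 169 FPKM against 165, 193 and 201 FPKM. The core protein Uqcrc2 and the hinge protein Uqcrh, the member of highest level, had log2 fold changes of -0.04 and -0.01. The 5 small subunits had a median of 0.12 and the core and Rieske proteins, 3 genes, of 0.03, a difference that was not tested.

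**Figure D4:**
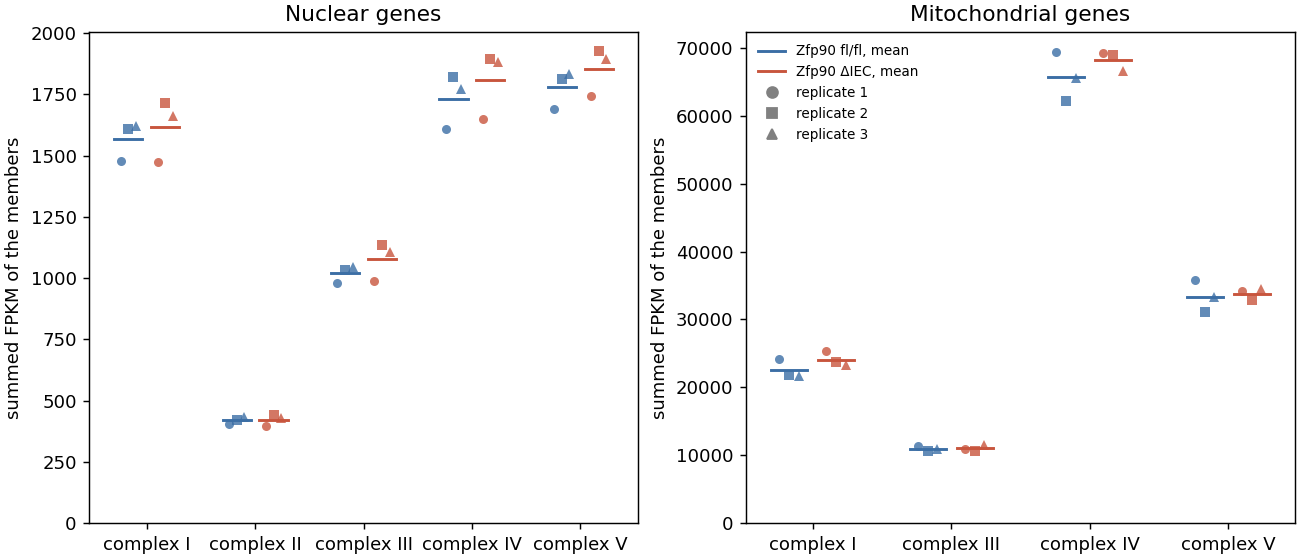
Summed FPKM of the members of each complex (y axes, from 0) for nuclear genes on the left and mitochondrial genes on the right, with a symbol for each replicate number and a line for the mean of 3 mice. The genotypes overlap in all 9 sums, and in the nuclear panel replicate 1 is the lowest mouse of its genotype in every complex.

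Complex IV, cytochrome c oxidase, held the members of lowest p in each direction, and these belong to 1 small family. Cox7a2l, also known as SCAFI, is described as a protein that joins complex III and complex IV into a supercomplex. Whether the protein made in these mice does so was not examined. Cox7a2l RNA was measured at 141, 147 and 142 FPKM in Zfp90 fl/fl mice and at 126, 120 and 125 FPKM in Zfp90 ΔIEC mice. All Zfp90 ΔIEC values lay below all Zfp90 fl/fl values, and the log2 fold change was -0.21 (SE 0.0503, unadjusted p = 0.0040, adjusted p = 0.134 over all genes tested). Cox7a1, the isoform of subunit 7a best known from heart and skeletal muscle, had higher values in Zfp90 ΔIEC mice, at 20.1, 22.6 and 21.4 FPKM in Zfp90 fl/fl mice and at 24.6, 31.6 and 29.8 FPKM in the knockout mice. Its groups did not overlap either, with a log2 fold change of 0.40 (SE 0.0986, unadjusted p = 0.0049, adjusted p = 0.137). Cox7a2, the isoform found in most tissues, had 117, 131 and 140 FPKM against 120, 137 and 144 FPKM, with a log2 fold change of 0.05. Its genotypes overlapped. The 3 genes together summed to 294 ± 13.6 FPKM and 286 ± 14.5 FPKM (SD, n = 3 each), so the family total differed by less than its spread. Within it, Cox7a1 made up 7.24%, 7.52% and 7.08% in Zfp90 fl/fl mice and 9.14%, 10.9% and 9.98% in Zfp90 ΔIEC mice. Cox7a2l made up 50.7%, 48.9% and 46.8% in Zfp90 fl/fl mice and 46.5%, 41.7% and 41.9% in Zfp90 ΔIEC mice. Neither gene passed the adjusted threshold in any setting. With 1 sample left out, log2 fold changes ran from -0.22 to -0.19 for Cox7a2l and from 0.33 to 0.50 for Cox7a1. Their signs could not change in these fits, because the groups do not overlap. Of 13 marker genes of stromal, muscle and endothelial cells 0 reached the level for testing, their sum was 1.12 to 1.39 FPKM in Zfp90 fl/fl mice and 1.36 to 2.24 FPKM in Zfp90 ΔIEC mice. The muscle genes Des, Myh11 and Acta2 were listed at 0 in at least 1 sample each, and Tagln, the highest of the list, was at 0.290 to 0.996 FPKM. The part of such cells in the Cox7a1 values was not tested.

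**Figure D5:**
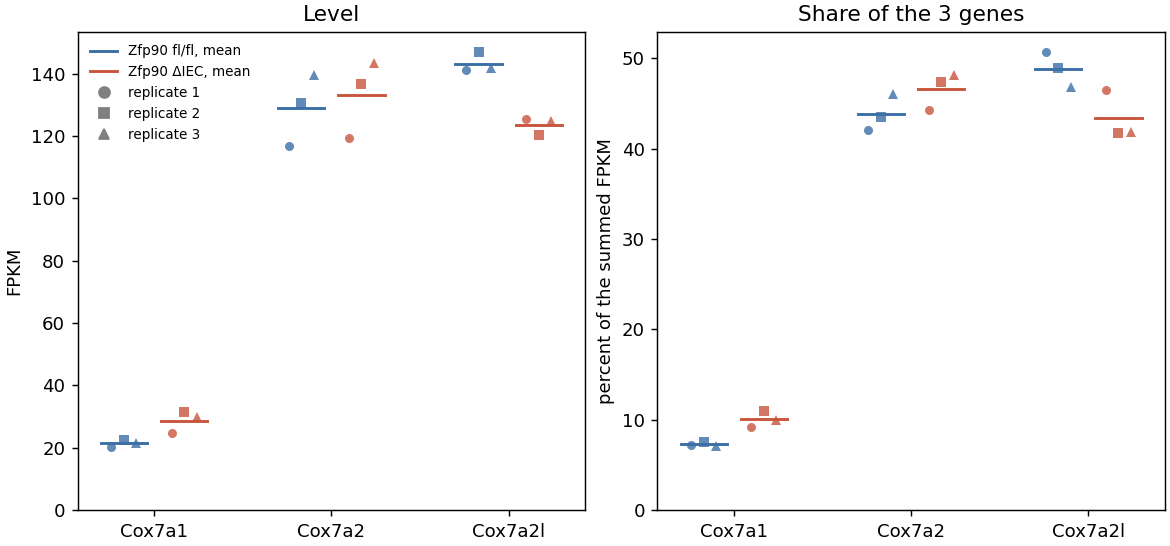
FPKM (left) and percent of the summed FPKM of the 3 genes (right) for Cox7a1, Cox7a2 and Cox7a2l, with a symbol for each replicate number and a line for the mean of 3 mice per genotype. Cox7a2l lies at 141 to 147 FPKM in Zfp90 fl/fl mice and at 120 to 126 FPKM in Zfp90 ΔIEC mice and Cox7a1 lies higher in all 3 Zfp90 ΔIEC mice, without passing the adjusted test, while Cox7a2 overlaps.

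Apart from Cox7a1, complex IV was represented by the isoforms found in most tissues. Cox6b1, the subunit of highest level in the complex, had means of 338 ± 22.4 and 359 ± 23.5 FPKM, and Cox4i1, a regulatory subunit, of 250 ± 32.2 and 273 ± 14.1 FPKM (SD, n = 3 each). Their paralogues were close to absent. Cox4i2, Cox7b2 and Cox8c were listed at 0 in all 6 mice, and Cox6a2, Cox8b and Ndufa4l2 had means of at most 0.0919 FPKM. Cox6b2, best known from testis, was measured at 0.882, 0.827 and 0.916 FPKM in Zfp90 fl/fl mice and at 0.830, 1.09 and 1.32 FPKM in Zfp90 ΔIEC mice. It made up 0.231% to 0.281% of the Cox6b pair in the former and 0.249% to 0.350% in the latter, which overlap. These 7 genes are the members that were not tested. Ndufa4, now counted with complex IV, had a log2 fold change of 0.04.

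The 16 nuclear genes of complex V, ATP synthase, summed to 1780 ± 76.6 and 1856 ± 98.3 FPKM (SD, n = 3 each). At an unadjusted p under 0.05, 3 were higher and 0 lower in Zfp90 ΔIEC mice, 18.8% against 14.6% of all genes tested. Of these 3, 2 were peripheral stalk genes and 1 was a membrane gene outside the c-ring. The 3 c-ring genes, also of the membrane part, had 0 at this p and a median log2 fold change of 0.05. The parts were not tested against each other. The 5 genes of the F1 head and central stalk had a median log2 fold change of 0.01, and Atp5a1, the alpha subunit and the nuclear member of highest level, was measured at 431, 469 and 472 FPKM in Zfp90 fl/fl mice and at 436, 489 and 460 FPKM in Zfp90 ΔIEC mice. The 4 peripheral stalk genes, which hold the head still, and the 4 other membrane genes were all above 0 in the fit of all 6 mice, with medians of 0.12 and 0.18. Atp5l, the g subunit of the membrane part, was measured at 14.3, 15.6 and 15.3 FPKM in Zfp90 fl/fl mice and at 17.6, 17.4 and 16.3 FPKM in Zfp90 ΔIEC mice. Its groups did not overlap, with a log2 fold change of 0.17 (SE 0.0603, unadjusted p = 0.0235, adjusted p = 0.262). Atp5o, the stalk subunit OSCP that joins stalk and head, had 93.1, 95.9 and 102 FPKM against 107, 114 and 106 FPKM, also without overlap and with an adjusted p of 0.275. Atp5j, the stalk subunit F6, had 32.8, 32.8 and 35.3 FPKM against 36.6, 38.7 and 36.1 FPKM, with an adjusted p of 0.339. Atp5j2, the f subunit, had the highest log2 fold change of the complex, 0.29, but its values of 39.97, 42.7 and 43.7 FPKM and of 42.0, 56.3 and 58.4 FPKM overlapped. The c-ring, which turns as protons pass, is made from 3 genes that encode the same mature protein. Of its summed FPKM, Atp5g3 made up 61.9% ± 0.787 and 62.9% ± 2.27, Atp5g2 24.0% ± 0.799 and 22.2% ± 1.16, and Atp5g1 14.1% ± 0.488 and 14.8% ± 1.46 (SD, n = 3 each). The Atp5g2 shares of 23.6%, 24.9% and 23.5% lay above those of 21.3%, 21.9% and 23.5% by a small gap at the closest pair.

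Of the 9 members that assemble complex I or couple ATP synthase, 7 had a log2 fold change above 0, with a median of 0.11. Ndufaf2, an assembly factor of complex I, was measured at 3.003, 3.12 and 2.65 FPKM in Zfp90 fl/fl mice and at 3.40, 3.93 and 3.31 FPKM in Zfp90 ΔIEC mice. Its groups did not overlap, with a log2 fold change of 0.21 (SE 0.0822, unadjusted p = 0.0375, adjusted p = 0.313). Ndufaf6 was at 3.04, 3.44 and 2.50 FPKM against 3.58, 3.84 and 3.48 FPKM, with an adjusted p of 0.360. Ndufaf1 was at 9.60, 9.53 and 9.61 FPKM against 9.66, 11.2 and 10.8 FPKM, a gap of well under the spread of the Zfp90 ΔIEC mice. Ndufaf8 had the lowest log2 fold change, -0.10, with an interval from -0.30 to 0.09.

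Mitochondrial genes are cut from long transcripts of each strand, yet genes of 1 strand lay at different levels here. Mean FPKM over the 6 mice ran from 939 for mt-Nd3 to 42052 for mt-Co1, the catalytic subunit of complex IV and the gene of highest level among all genes tested. The subunits of complex IV and complex V lay at the top and the 7 subunits of complex I below them. mt-Nd6, the complex I subunit on the other strand, was measured at 1683, 1581 and 1494 FPKM in Zfp90 fl/fl mice and at 1786, 1870 and 1692 FPKM in Zfp90 ΔIEC mice. Its groups did not overlap, with a log2 fold change of 0.17 (SE 0.0692, unadjusted p = 0.0446, adjusted p = 0.328). mt-Nd3 was at 915, 864 and 882 FPKM against 1069, 940 and 965 FPKM, with a log2 fold change of 0.16 (adjusted p = 0.340). mt-Co2 was at 12633, 11977 and 12866 FPKM against 14006, 13574 and 13480 FPKM, with a log2 fold change of 0.13 (adjusted p = 0.376). These 3 were the mitochondrial genes without overlap, 23.1% of the 13, against 21.3% of all genes tested in either direction. None of the 3 passed the adjusted threshold. mt-Nd1 had a log2 fold change of 0.16, mt-Nd5 of 0.13 and mt-Nd2 of 0.09, with overlapping groups. mt-Nd1 turned to -0.11 under quantile normalization, which ties genes to their rank. The neighbours mt-Atp8 and mt-Atp6, which share the bases printed above, were at 0.02 each, mt-Cytb at 0.01, mt-Nd4 at 0.01, mt-Nd4l at 0.02 and mt-Co3 at -0.01, so close to 0 that the sign of each changed under some setting. The 7 mitochondrial subunits of complex I had a median of 0.13 and summed to 22519 ± 1405 and 24085 ± 1056 FPKM (SD, n = 3 each), which overlap. Complex by complex, the mitochondrial sum over the nuclear sum was 14.4 ± 1.67 and 15.0 ± 1.86 in complex I, 10.7 ± 0.665 and 10.2 ± 0.850 in complex III, 38.1 ± 4.60 and 37.9 ± 3.57 in complex IV and 18.8 ± 2.08 and 18.3 ± 1.30 in complex V (SD, n = 3 each). All 4 ratios differed between genotypes by less than their spread.

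Genes that build, feed or regulate the chain gave 0 calls past the adjusted threshold in each of 6 lists. At an unadjusted p under 0.05, 6.56% of all genes tested were higher and 8.09% lower, 14.6% in either direction. The shares of the 6 lists, in the order given here, were 12.8%, 10%, 0%, 6.67%, 14.3% and 3.85%. Among 39 assembly factors tested of 41 listed, 2 were higher and 3 lower at an unadjusted p under 0.05. Higd1a, which associates with complex IV, was at 22.3, 24.3 and 25.4 FPKM in Zfp90 fl/fl mice and at 31.5, 44.0 and 34.3 FPKM in Zfp90 ΔIEC mice, without overlap, with a log2 fold change of 0.58 (SE 0.124, adjusted p = 0.119). Cox18, which inserts a mitochondrial subunit of complex IV into the membrane, had a log2 fold change of 0.28 (adjusted p = 0.242). Among 20 electron carriers and carriers of ADP tested of 22, 2 were higher and 0 lower, and the sum of the list, 1143 ± 44.4 and 1235 ± 38.4 FPKM (SD, n = 3 each), did not overlap. Etfb, which takes electrons from fatty acid oxidation, was at 64.8, 65.8 and 66.7 FPKM against 80.3, 86.8 and 83.3 FPKM, well apart, with a log2 fold change of 0.34 (SE 0.0531, adjusted p = 0.066). Coq4, needed to make ubiquinone, had a log2 fold change of 0.26 (adjusted p = 0.242). Of 24 factors of mitochondrial DNA and RNA tested of 27, 0 were higher or lower. Mterf3, a repressor of mitochondrial transcription, and Ssbp1, the mitochondrial single-strand DNA binding protein, had the lowest p there, with log2 fold changes of -0.14 and -0.12. Of 15 regulators of respiratory genes 1 was lower, Sirt1, a deacetylase, at 10.1, 9.95 and 11.5 FPKM against 8.96, 7.03 and 6.92 FPKM (log2 fold change -0.42, adjusted p = 0.142). Gabpb2, a GABP subunit, had a log2 fold change of -0.10. Of 21 genes of the tricarboxylic acid cycle 1 was higher and 2 were lower, with Ogdh at 0.18 (adjusted p = 0.231) and Idh1, the cytosolic isocitrate dehydrogenase, at -0.24 (adjusted p = 0.109). Of 78 mitochondrial ribosome genes 2 were higher and 1 was lower, and 56 had a log2 fold change above 0 with a median of 0.04. It was above 0 in 16 of the 21 cycle genes and in 14 of the 20 carriers, with medians of 0.07 each. In the assembly factors it was above 0 in 20 of 39, in the DNA and RNA factors in 14 of 24 and in the regulators in 8 of 15. The medians of these lists were 0.00.

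Markers of epithelial cell types were higher in Zfp90 ΔIEC mice by count at an unadjusted p under 0.05, and their part in the results above was not tested. Of all genes tested, 6.56% were higher and 8.09% lower at this p. In these bulk samples fewer cells of a type and less RNA per cell cannot be told apart. The epithelial genes Epcam and Cdh1 were present in all 6 mice, as the label of the tissue requires. Of 15 colonocyte markers 7 were higher and 0 lower at an unadjusted p under 0.05, and their sum was 9627 to 11955 FPKM in Zfp90 fl/fl mice and 12354 to 16796 FPKM in Zfp90 ΔIEC mice. Slc26a3, a chloride transporter, had a log2 fold change of 0.52 (adjusted p = 0.087) and Guca2a, the peptide guanylin, of 0.49 (adjusted p = 0.134). The log2 fold change was above 0 in 10 of the 15 and lowest, at -0.78, in Saa1, an acute phase gene (adjusted p = 0.392). Of 8 goblet cell markers 3 were higher and 0 lower, with sums of 2077 to 2516 and 2699 to 3617 FPKM, Zg16 at a log2 fold change of 0.52 (adjusted p = 0.117) and Agr2 at 0.46 (adjusted p = 0.284). Of 10 crypt and cycling genes tested of 12, 8 were higher and 0 lower, with sums of 124 to 136 and 153 to 161 FPKM. The other 2 had a log2 fold change below 0, the lowest at -0.31. Mki67, a proliferation marker, rose from 22.6, 21.8 and 22.6 FPKM to 29.1, 30.2 and 30.6 FPKM, a log2 fold change of 0.41 (adjusted p = 0.0478), and Ccnb1 had one of 0.40 (adjusted p = 0.092). The call of Mki67 held in 2 of 13 alternatives, with adjusted p-values from 0.041 to 0.163. Lgr5, a stem cell gene, stayed below the level for testing. Of 20 leukocyte markers 4 were tested, and Lyz2 was lower at this unadjusted p, with a log2 fold change of -0.80 (adjusted p = 0.078). Laptm5 reached the level for testing through the Zfp90 fl/fl mice alone, at 1.67, 1.48 and 1.52 FPKM against 0.453, 0.620 and 0.830 FPKM, so its p is not used. The leukocyte sums of 37.9 to 59.6 and 28.0 to 40.3 FPKM overlapped and consisted mostly of Ly6g. The leukocyte markers Cd79a, Adgre1, S100a8 and S100a9 were listed at 0 in at least 1 sample each. All other markers of this list were above 0 in all 6 mice, such as Ptprc at 0.306 to 0.812 FPKM and Lyz2 at 1.61 to 4.81 FPKM.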

How the data were processed

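Colon epithelium was isolated with EDTA and DTT, and strand-specific libraries were sequenced. The authors deposited an FPKM per gene and sample for 52550 mouse Ensembl identifiers, of which 52403 had a symbol in GENCODE M21. The unit is not named in the files and follows from the methods and values. The study's methods name TopHat, a human genome and Cuffdiff, whereas the submitters' processing notes list FastQC, STAR 2.5, Cuffnorm, DESeq 1.22.1 and mm9. The counting strand is not given in the sources used here. Low values fell within 10% of whole-fragment steps for only 53.1% to 57.3% of those examined, so fragments were not recovered and the depth is unknown.

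The deposited FPKM were tested as log2(FPKM + 1) with limma 3.58.1 (R 4.3.3, with an intensity trend) in the 11564 genes that reached 1 FPKM in 3 or more samples, with Benjamini-Hochberg adjustment over all of them, after a check on simulated data. Fold changes on this scale understate those of low genes, and p-values measure the spread between these samples. Sums and shares were described without a test. Alternatives were median ratio scaling, quantile normalization, a pseudocount of 0.1, omission of the filter, scaling to the total of genes outside the mitochondrion, the replicate number as a block, and leaving out each sample. Leaving out replicate 1 of both genotypes and the count of members above 0 were added after seeing the data. Python 3.11.15 was used with matplotlib 3.10.9, numpy 2.4.6 and pandas 2.3.3.

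Members and gene lists were chosen with earlier results of these data known. Genes named were the 13 mitochondrial genes, per complex the members of highest level, highest and lowest fold change and lowest p, paralogues of a subunit, the 2 of lowest p per list, and Zfp90. Others, such as Atp5o, Atp5j, Ndufs1 and Uqcrb, were picked with their values in view.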

Additional observations from a re-analysis of the deposited data

How the results depend on the processing

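The count of members past the adjusted threshold was 0 in every alternative. Counts of all genes called, 23 as reported, were 15 without the filter and 13 with a pseudocount of 0.1, 10 to 21 when 1 sample was left out and 11 without replicate 1 of both genotypes. Members with an unadjusted p under 0.05, 8 as reported, numbered 15 with median ratio scaling, 13 with quantile normalization, 3 to 20 with 1 sample left out and 13 without replicate 1 of both genotypes, against 14.1%, 14.4%, 11.2% to 15.3% and 12.3% of all genes tested. Members without overlap, 13 as reported, numbered 15 to 50 with 1 sample left out and 60 without replicate 1 of both genotypes, while the share of all genes went from 21.3% to between 30.3% and 36.2% and to 46.6%, since fewer mice overlap less. The median log2 fold changes stayed above 0 with any sample left out, from 0.02 to 0.12 in nuclear and from 0.01 to 0.11 in mitochondrial members. Quantile normalization gave 5 members of top rank the same value in all mice and so no difference for them or for the mitochondrial median.

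The labels do not tie a replicate number to a litter, cage or day, and pairing was not taken as established. Deviations of samples with the same number correlated at 0.19, 0.11 and 0.08 over all genes tested and at 0.56, 0.35 and 0.17 over the members, and every Zfp90 fl/fl sample correlated best with its own number. When this number was added as a block to the fit, 47 genes were called, 0 of them members, and 14 members had an unadjusted p under 0.05, against 16.2% of all genes tested.

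The sign of some genes changed. Under quantile normalization mt-Nd1 was at -0.11 and mt-Nd4 at -0.24, under scaling to the total of genes outside the mitochondrion mt-Nd4 was at -0.0096, mt-Cytb at -0.012 and Atp5a1 at -0.0044, mt-Co3 was at 0.040 without replicate 1 of both genotypes, and under median ratio scaling mt-Co3 was at 0.0092 and Uqcrh at 0.0083. With 1 sample left out, log2 fold changes ran from -0.047 to 0.074 for mt-Atp8, -0.012 to 0.069 for mt-Atp6, -0.055 to 0.015 for mt-Co3, -0.028 to 0.060 for mt-Nd4, -0.024 to 0.030 for mt-Cytb, -0.054 to 0.095 for mt-Nd4l, -0.057 to 0.0085 for Sdhd, -0.031 to 0.0019 for Uqcrh, -0.030 to 0.053 for Atp5a1, -0.14 to 0.0052 for Atp5g2, -0.024 to 0.12 for Cox7a2, -0.12 to 0.063 for Cox8a, -0.021 to 0.094 for Ndufa4, -0.031 to 0.23 for Atp5g1 and -0.0067 to 0.081 for Atp5g3. The cause was not tested. With 3 mice a genotype, differences within the intervals printed cannot be shown, and levels without deposited depth carry no counting interval.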

Other observations

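Besides its protein genes, the mitochondrial genome encodes tRNAs and rRNAs, of which 24 were listed and 23 tested. At an unadjusted p under 0.05, 11 were higher and 0 lower in Zfp90 ΔIEC mice, against 6.56% and 8.09% of all genes tested. Of the 23, 0 passed the adjusted threshold, with 0.066 the lowest adjusted p. Of 8 tRNAs on the minus strand, the strand of mt-Nd6, 7 were tested and 5 were higher without overlap, against 8.73% of all genes tested. These 5 include 4 neighbours of 1 cluster. mt-Tc was at 86.9, 70.2 and 77.1 FPKM in Zfp90 fl/fl mice and at 130.7, 110.5 and 116.0 FPKM in Zfp90 ΔIEC mice, with a log2 fold change of 0.60 (adjusted p = 0.069). mt-Tn was at 111.9, 93.6 and 98.6 FPKM against 166.5, 140.8 and 142.9 FPKM, with one of 0.56 (adjusted p = 0.079), and mt-Ta and mt-Ty had ones of 0.55 and 0.61. The next gene on the plus strand, mt-Tw, had the highest, 0.86 (adjusted p = 0.066), at 25.5, 23.9 and 17.7 FPKM against 42.3, 42.5 and 38.2 FPKM. tRNAs are shorter than most fragments of such libraries, and their FPKM can include fragments of uncut transcripts, which was not tested. mt-Tp was at 73.4 FPKM in Zfp90 ΔIEC replicate 1 and at 262.1 to 346.9 FPKM in the other 5 mice. mt-Ts2 was at 0.2 FPKM in that sample and at 10.3 to 23.5 FPKM in the others. Its neighbours were high in the same sample, mt-Th at 71.2 FPKM against 16.2 to 32.1 FPKM and mt-Tl2 at 54.4 against 9.87 to 18.9 FPKM. So was mt-Tr, at 68.0 FPKM against 14.9 to 25.3 FPKM. The cause was not tested. The rRNAs mt-Rnr1 and mt-Rnr2 had log2 fold changes of -0.05 and 0.12 with overlapping groups.

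Some genes of the same complexes carry other symbols. Cyc1, cytochrome c1 of complex III, had means of 170 ± 10.1 and 181 ± 23.1 FPKM, Usmg5, a small ATP synthase subunit, of 183 ± 4.09 and 194 ± 24.8 FPKM, and Atpif1, the inhibitor of ATP synthase, of 65.1 ± 3.32 and 68.5 ± 9.02 FPKM (SD, n = 3 each), with log2 fold changes of 0.08, 0.08 and 0.06 and overlapping groups. Replicate 1 was the lowest of its genotype in all 3 genes. Ndufb1-ps, listed as noncoding, was at 11.0, 11.5 and 10.7 FPKM against 13.2, 12.9 and 11.6 FPKM, without overlap (log2 fold change 0.17, adjusted p = 0.313).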
